A study of Mus musculus with 22 samples.

Results

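The Schlafen family is a cluster of interferon-inducible genes that was measured here in mouse embryonic fibroblasts (MEFs), primary cells whose growth arrests in senescence over serial passage. The 8 genes Slfn1, Slfn2, Slfn3, Slfn4, Slfn5, Slfn8, Slfn9 and Slfn10-ps were taken by name from the 55401 gene identifiers of the raw count table. The family was selected on a known readout, the low level of Slfn10-ps in late-passage S6K1 knockout (KO) MEFs, so the values of late KO MEFs against late WT MEFs are a description, and no count of members in that comparison is evidence. RNA-seq was carried out on 22 libraries in 2 sets of MEFs, and levels are given as CPM, read counts scaled to library size by TMM. The S6K1 set held 4 libraries of S6K1 wild-type (WT) MEFs at passage 3 (early), 4 of S6K1 WT MEFs at passage 8 (late) and 3 of S6K1 KO MEFs at passage 8. The S6K1/S6K2 set held 4 libraries of WT MEFs at passage 3, 4 of WT MEFs at passage 8 and 3 of S6K1/S6K2 double KO (DKO) MEFs at passage 8. All mice were C57BL/6, and the MEFs were made from mid-gestation embryos without head and viscera. S6K1 WT and KO embryos were littermates. DKO embryos came from parents that lacked S6K2 and carried 1 S6K1 null allele, while their WT controls were bred earlier from WT mothers, so in that set litter and genotype cannot be told apart. The labels do not say which libraries share an embryo, so p-values cover only the spread between these libraries.

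Schlafen genes occur in mammals and are induced by type I interferon. Mouse members fall into a group of short proteins (Slfn1 and Slfn2), an intermediate group (Slfn3 and Slfn4) and a group of long proteins with a helicase-like C-terminal part (Slfn5, Slfn8 and Slfn9, with the pseudogene Slfn10-ps beside them). They were first described for their part in thymocyte development and T cell quiescence, and members of the family cleave or protect tRNA. S6K1 and S6K2, encoded by Rps6kb1 and Rps6kb2, are kinases downstream of mTORC1 that phosphorylate ribosomal protein S6.

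All 8 genes lie within 263.806 kb of chromosome 11. In the build GRCm38.p6 of RefSeq, the cluster runs from 82951349 (the start of Slfn5) to 83215154 (the end of Slfn3), and all members lie between 3.28 and 3.53 Mb from Rps6kb1, the gene deleted in KO and DKO MEFs. The 5 genes of the first part of the cluster, Slfn5, Slfn9, Slfn8, Slfn10-ps and Slfn2, passed the filter on low counts in both sets. Slfn1, Slfn4 and Slfn3, at the far end, did not, nor did their neighbour Slfn14.

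**Figure D1:**
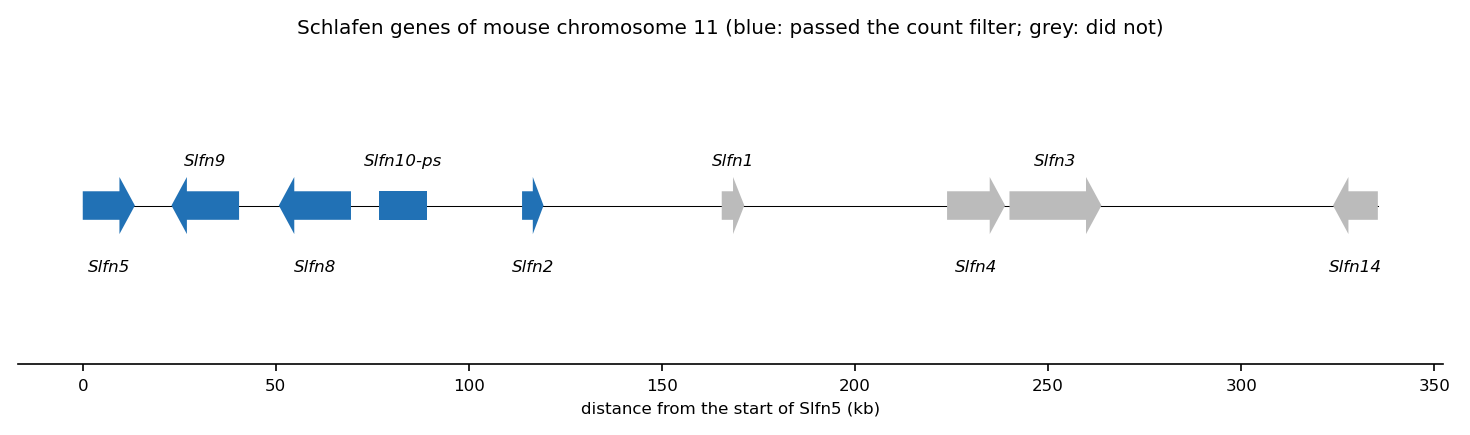
Map of the Schlafen genes of chromosome 11 in RefSeq GRCm38.p6, as distance from the start of Slfn5 in kb. Arrows point in the direction of transcription, and Slfn10-ps is a plain box because its strand was not given in the tables used here. The 5 genes in blue passed the filter on low counts, and the genes in grey, all at the far end of the cluster, did not.

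The sequence before the start site is shown for the 4 tested genes with a RefSeq promoter entry, since these genes moved with genotype or passage and differ in the letters of the interferon-stimulated response element. Each stretch holds the 200 bases before the start site in GRCm38.p6, 5′ to 3′ on the strand of the gene, with matches to the element's core GAAANNGAA, searched on both strands, in capitals. The stretch of Slfn5 is chr11:82951902-82952101 on the plus strand, inside the annotated span of the gene. That of Slfn9 is chr11:82991831-82992030 on the minus strand, that of Slfn8 is chr11:83020811-83021010 on the minus strand, and that of Slfn2 is chr11:83064912-83065111 on the plus strand.
Slfn5: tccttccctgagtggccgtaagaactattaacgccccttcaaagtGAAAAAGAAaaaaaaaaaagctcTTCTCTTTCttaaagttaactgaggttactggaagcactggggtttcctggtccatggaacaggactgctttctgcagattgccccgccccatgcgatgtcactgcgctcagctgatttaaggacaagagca
Slfn9: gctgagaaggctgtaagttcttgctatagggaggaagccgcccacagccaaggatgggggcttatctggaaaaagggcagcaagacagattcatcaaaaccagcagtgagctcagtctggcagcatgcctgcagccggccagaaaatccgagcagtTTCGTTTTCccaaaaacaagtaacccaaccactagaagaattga
Slfn8: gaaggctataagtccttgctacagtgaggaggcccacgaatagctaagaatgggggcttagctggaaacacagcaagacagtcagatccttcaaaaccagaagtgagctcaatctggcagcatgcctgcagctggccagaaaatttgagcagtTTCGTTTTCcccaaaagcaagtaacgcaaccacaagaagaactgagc
Slfn2: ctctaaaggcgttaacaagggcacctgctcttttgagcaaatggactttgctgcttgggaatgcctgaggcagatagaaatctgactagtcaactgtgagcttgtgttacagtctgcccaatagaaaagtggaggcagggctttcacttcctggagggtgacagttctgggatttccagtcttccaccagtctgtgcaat
Slfn5 held 2 matches, at positions -155 and -132 from the start site. Slfn9 held 1 match at -44, and Slfn8 held 1 match at -47, which is also in the promoter of another start of that gene, at -135. No match was found in the 300-base promoters of Slfn1, Slfn2, Slfn3 or Slfn4, and Slfn10-ps was not in the promoter table. The core occurred in 8.56% of the 32851 promoters of this length and in 9.76% of the 27025 genes, so a match alone is not particular to this family. Of the other motifs searched, the GAS element TTCNNNGAA (8.30% of promoters) and the exact ETS string GAGGAAGT (3.20%) were in none of the members' promoters. Other forms of the ETS motif were not searched, so their absence is not shown. The AP-1 motif TGANTCA (7.81%) was in Slfn4 alone, at -34. The stretches of Slfn8 and Slfn9 were identical at 166 of 205 aligned positions (81.0%), whereas the other pairs of the 4 were 44.8 to 51.6% identical.

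The total count per library was 10742454 to 17314832 (median 14651363.5), and no library pair of a group agreed within sampling noise. The targeted genes followed the labels. Rps6kb1 was at 19.998 ± 5.06 CPM (SD, n = 3) in late KO and 63.5 ± 9.15 CPM (n = 4) in late WT MEFs, and in the other set at 23.9 ± 4.02 CPM (n = 3) in DKO and 73.7 ± 10.5 CPM (n = 4) in late WT MEFs. Rps6kb2 was at 0.811 ± 0.478 CPM in DKO and 13.2 ± 2.47 CPM in late WT MEFs. All 10 fibroblast markers were detected, with a summed level of 15938 to 36206 CPM in all libraries. The same cultures also held macrophage marker RNA. The 19 macrophage markers summed to 526 to 1185 CPM in early and 5801 to 12044 CPM in late WT MEFs of the S6K1 set, and to 3893 to 5242 CPM after S6K1 loss. For the S6K1/S6K2 set the sums were 644 to 2181 CPM at early and 8038 to 13721 CPM at late passage in WT and 1014 to 3731 CPM in DKO MEFs. In bulk RNA, fewer cells of a type and less RNA per cell cannot be told apart. Of 8 T cell markers, 2 passed the filter. The list summed to 1.278 to 8.61 CPM per library, with Cd8a at 0 in all 6 groups and Cd3d at 0 in all but DKO MEFs.

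Slfn1 had 0 counts in all 22 libraries. At 95% confidence, 0 counts in a single library allow an expected count of at most about 3. That is 0.173 to 0.279 CPM of the library total, without TMM scaling. Slfn3, of the intermediate group, had 0 to 7 counts per library and 33 in all, and Slfn4, its neighbour, had 0 to 3 counts per library and 7 in all. At this depth no difference could be shown for these genes. Outside the 8 members, Slfn14 had 0 counts in every library, Slfnl1, a more distant relative, had 0 to 3, and the antisense gene 1700003F17Rik (Slfn5os) had 0.

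Slfn2, whose loss in mice makes T cells unable to stay quiescent, was the most abundant member. It held 47.5 to 83.1% (median 71.1%) of the family's counts per library. Early WT MEFs of the S6K1 set had 30.9, 50.8, 45.6 and 20.5 CPM and late WT MEFs 95.2, 58.4, 57.7 and 56.8 CPM. Late KO MEFs had 28.4, 29.1 and 28.4 CPM. All 4 late WT libraries were above all early WT and KO libraries, and the KO libraries lay within the range of early WT MEFs. The S6K1/S6K2 set had, in early WT MEFs, 19.8, 20.1, 32.0 and 33.2 CPM and late WT MEFs 40.0, 47.3, 40.9 and 30.0 CPM. Late DKO MEFs had 15.6, 7.74 and 5.31 CPM. Early and late WT libraries overlapped in this set, and the DKO libraries lay below both.

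Slfn5, a long member that interferon induces and that has a nuclear localisation, had the same order of groups. In the S6K1 set, early WT MEFs had 1.18, 6.88, 5.41 and 1.85 CPM and late WT MEFs 18.2, 14.8, 11.8 and 9.08 CPM. Late KO MEFs had 2.46, 4.06 and 1.89 CPM. As for Slfn2, late WT libraries were above the rest and KO libraries lay within the early WT range. For the S6K1/S6K2 set, early WT MEFs had 2.43, 1.35, 3.44 and 3.31 CPM and late WT MEFs 5.85, 8.85, 5.08 and 4.54 CPM. Late DKO MEFs had 1.60, 1.06 and 1.11 CPM. Here early and late WT MEFs did not overlap, while DKO library 1 was above the lowest early WT library.

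Slfn9, a long member next to Slfn5, ran the other way with passage. Early WT MEFs of the S6K1 set had 12.1, 20.04, 18.7 and 14.3 CPM and late WT MEFs 9.17, 5.83, 5.08 and 5.01 CPM. Late KO MEFs had 3.72, 5.96 and 2.04 CPM. All late WT libraries were below all early WT libraries, and 1 KO library was within the late WT range. Early WT MEFs of the S6K1/S6K2 set had 14.2, 11.3, 8.69 and 4.83 CPM and late WT MEFs 5.55, 6.01, 4.79 and 5.11 CPM. Late DKO MEFs had 1.77, 1.36 and 1.42 CPM. WT groups overlapped through early library 4, and DKO libraries were below every WT library.

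Slfn8, a long member with a promoter close in sequence to that of Slfn9, had few counts. In the S6K1 set, early WT MEFs had 1.77, 5.08, 3.03 and 1.93 CPM and late WT MEFs 5.10, 2.32, 1.86 and 1.78 CPM. Late KO MEFs had 0.491, 0.369 and 1.44 CPM. The WT groups overlapped throughout, and the KO libraries, with 6 to 19 counts each, were below both. The S6K1/S6K2 set had, in early WT MEFs, 2.32, 2.69, 2.27 and 1.65 CPM and late WT MEFs 2.35, 1.73, 1.03 and 1.85 CPM. Late DKO MEFs had 0.591, 0.194 and 0.0618 CPM. The DKO values rest on 7, 2 and 1 counts and lie below all WT libraries.

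Slfn10-ps, the pseudogene whose low level in KO MEFs led to the choice of the family, overlapped between early and late WT MEFs in both sets. Early WT MEFs of the S6K1 set had 2.36, 3.44, 3.03 and 2.20 CPM and late WT MEFs 4.31, 2.48, 2.88 and 4.16 CPM. Late KO MEFs had 0.491, 0.614 and 0.378 CPM. The KO libraries, with 5 to 10 counts each against 25 to 55 in WT libraries, were below all WT libraries. For the S6K1/S6K2 set, early WT MEFs had 2.82, 2.69, 2.34 and 0.993 CPM and late WT MEFs 2.96, 1.94, 1.84 and 1.09 CPM. Of the late DKO libraries, 2 had 0 counts and 1 had 2 counts. In the S6K1/S6K2 set this gene, like Slfn8, passed the filter on low counts through its WT libraries only.

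**Figure D2:**
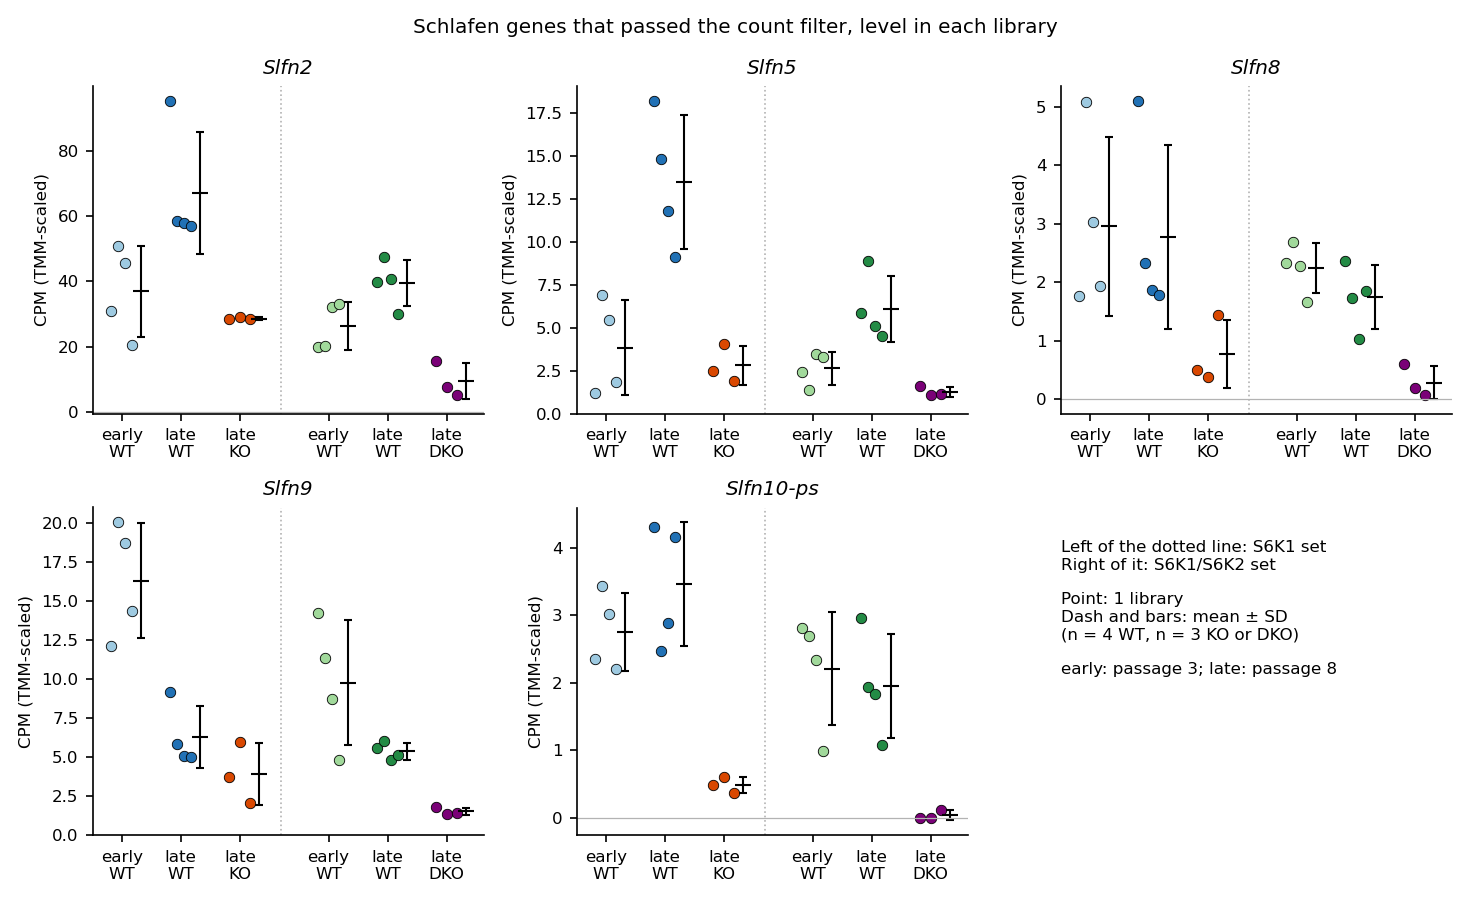
Level of the 5 tested Schlafen genes in each library (TMM-scaled CPM, linear axes), with the 3 groups of the S6K1 set left of the dotted line and the 3 of the S6K1/S6K2 set right of it. Points are libraries and dashes with bars are means ± SD (n = 4 WT, n = 3 KO or DKO). Slfn2 and Slfn5 were highest in late WT MEFs of both sets, Slfn9 was highest in early WT MEFs, and the mean of the DKO libraries was the lowest of the 6 groups for all 5 genes, with Slfn10-ps at 0 to 0.124 CPM.

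Per kb of exon, Slfn2 led in every group, with a mean of 40.3 CPM per kb in late WT MEFs of the S6K1 set and 5.74 in DKO MEFs. In late WT MEFs of the S6K1 set it was followed by Slfn5 (3.04 CPM per kb), Slfn9 (1.33), Slfn10-ps (0.955) and Slfn8 (0.676). In early WT MEFs of that set Slfn9 (3.45 CPM per kb) came before Slfn5 (0.865), Slfn10-ps (0.761) and Slfn8 (0.722), and the last 3 did not differ beyond the spread of their libraries. Summed over the 8 genes, the family was at 62.9 ± 21.8, 93.1 ± 26.1 and 36.6 ± 3.08 CPM in early, late and KO MEFs of the S6K1 set. It was at 43.3 ± 4.60, 54.8 ± 9.62 and 12.8 ± 6.20 CPM in early, late and DKO MEFs of the other set (SD, n = 4, 4 and 3).

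Serial passage moved the members in opposite directions. In WT MEFs of the S6K1 set, Slfn2 rose from 36.9 ± 13.8 to 67.0 ± 18.8 CPM (SD, n = 4 each) and Slfn5 rose from 3.83 ± 2.75 to 13.5 ± 3.92 CPM. Slfn9 fell from 16.3 ± 3.70 to 6.27 ± 1.97 CPM. The log2 fold changes were 0.86 (SE 0.26, edgeR adjusted p = 0.0490) for Slfn2 and 1.81 (SE 0.48, edgeR adjusted p = 0.0282) for Slfn5. For Slfn9 the log2 fold change was -1.38 (SE 0.31, edgeR adjusted p = 0.0132). Slfn8 (log2 fold change -0.10, SE 0.50, edgeR adjusted p = 0.924) and Slfn10-ps (0.32, SE 0.29, edgeR adjusted p = 0.510) did not pass, and for Slfn10-ps the late WT libraries are those of the comparison that led to the choice of the family. In all, 3 of 5 tested members passed, where 12.9% of the 14132 genes tested did. Without early library 4, late library 1 or late library 2, 1 of 5 members passed (Slfn9). Slfn2, close to the threshold, also did not pass without early library 1, late library 3 or late library 4, with a Y-linked covariate or in the fit to 2 groups, and it passed in 7 of 15 alternatives, against 11 of 15 for Slfn5. In the S6K1/S6K2 set, 1 of 5 tested members passed, where 13.2% of the 14365 genes tested did. Slfn5 rose from 2.63 ± 0.967 to 6.08 ± 1.92 CPM (log2 fold change 1.24, SE 0.32, edgeR adjusted p = 0.0270), but it did not pass without early library 1, early library 2 or late library 2, when 0 of 5 members passed. Slfn2 had a log2 fold change of 0.62 (SE 0.29, edgeR adjusted p = 0.171) and Slfn9 of -0.84 (SE 0.28, edgeR adjusted p = 0.0686). Slfn8 (-0.32, SE 0.42, edgeR adjusted p = 0.637) and Slfn10-ps (-0.15, SE 0.45, edgeR adjusted p = 0.853) lay closer to 0.

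All 19 macrophage markers rose with passage in both sets (median log2 fold change 2.96 in the S6K1 set and 2.57 in the S6K1/S6K2 set), and their part in the rises of Slfn2 and Slfn5 was not tested.

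The effect of passage was compared between the sets by an interaction term over all 22 libraries. None of the 5 members passed, where 0.712% of the 14886 genes tested did, and 0 of 5 members had an unadjusted p under 0.05 in edgeR and 0 passed in DESeq2. The differences of the log2 fold changes, S6K1/S6K2 set minus S6K1 set, were between -0.60 (SE 0.60) for Slfn5 and 0.51 (SE 0.43) for Slfn9, with edgeR adjusted p from 0.734 to 0.930. The standard errors leave room for differences of that size in either direction.

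In late S6K1 KO MEFs all 5 tested members were lower than in late WT littermate MEFs. These values are a description, because this comparison led to the choice of the family. The log2 fold change was -2.77 (SE 0.36) for Slfn10-ps, -2.26 (SE 0.55) for Slfn5, -1.86 (SE 0.60) for Slfn8, -1.23 (SE 0.29) for Slfn2 and -0.67 (SE 0.35) for Slfn9. In mean level, Slfn10-ps was at 0.495 ± 0.118 CPM in KO (SD, n = 3) and 3.46 ± 0.917 CPM in late WT MEFs (n = 4). The KO libraries were below every late WT library for 4 of 5 members, the exception being Slfn9 (6.19% of the 14132 genes tested had this order). The fit called 1 of 5 members in edgeR, Slfn10-ps (0.0425% of genes), and 3 of 5 in DESeq2 (1.85% of genes). These counts follow from the choice of the family and are not support for it. The summed macrophage markers were also lower in KO MEFs, with all 19 log2 fold changes below 0 and a median of -0.87, and their part in the values of the Schlafen genes was not tested. Y-linked genes were expressed in all 3 KO libraries but in 1 of 4 late WT libraries. With a Y-linked covariate, also as a description, the log2 fold change was -2.62 (SE 0.43) for Slfn10-ps and -1.99 (SE 0.64) for Slfn5. It was -1.37 (SE 0.68) for Slfn8, -1.17 (SE 0.36) for Slfn2 and -0.48 (SE 0.42) for Slfn9.

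Late DKO MEFs had lower levels of every tested member than late WT MEFs, in other libraries than the KO comparison that led to the choice of the family. The members and tests were still chosen with earlier results of these data known. Slfn2 fell from 39.6 ± 7.15 to 9.56 ± 5.38 CPM (SD, n = 4 and 3) and Slfn5 fell from 6.08 ± 1.92 to 1.26 ± 0.298 CPM. Slfn9 fell from 5.37 ± 0.533 to 1.52 ± 0.224 CPM and Slfn8 was at 1.74 ± 0.545 CPM in late WT and 0.282 ± 0.275 CPM in DKO MEFs. The log2 fold changes were -2.07 (SE 0.34, edgeR adjusted p = 0.00793) for Slfn2, -2.28 (SE 0.39, edgeR adjusted p = 0.00796) for Slfn5 and -1.83 (SE 0.34, edgeR adjusted p = 0.0129) for Slfn9. Slfn8 and Slfn10-ps passed the filter on low counts through WT libraries only, so their lower levels in DKO MEFs are a description. Slfn8 had 10 counts in DKO and 107 in late WT libraries, a level 6.91-fold lower (95% interval 3.62 to 14.8-fold). With 2 counts in DKO and 119 in late WT libraries, Slfn10-ps was 38.5-fold lower (95% interval 10.4 to 321-fold, exact and for counting error only). The fit called 5 of 5 members, Slfn8 and Slfn10-ps included, where it called 4.78% of the 14365 genes tested and 3.95% in this direction, and the count is no support beyond Slfn2, Slfn5 and Slfn9. Every DKO library was below every late WT library for Slfn2, Slfn5 and Slfn9, and for Slfn8 and Slfn10-ps, an order that 10.0% of the genes tested had. Without DKO library 1, which had the highest summed macrophage markers of the DKO group, Slfn2, Slfn5 and Slfn9 passed. Without library 2 none of these 3 passed (edgeR adjusted p = 0.061 to 0.080), and without library 3 Slfn2 alone did, with 97 and 157 genes called in all. Their log2 fold changes under these 3 omissions ranged from -2.61 to -1.75. Macrophage markers fell in the same comparison (17 of 19 passed, median log2 fold change -2.33), and their part in the falls of the Schlafen genes was not tested. Y-linked genes were expressed in 1 of 3 DKO and 3 of 4 late WT libraries, and with a Y-linked covariate Slfn2, Slfn5 and Slfn9 still passed.

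Late DKO MEFs were also set against early WT MEFs of the same set. The comparison was added after the data had been seen, because the summed macrophage markers of these groups overlapped. They were at 1014 to 3731 CPM in DKO and 644 to 2181 CPM in early WT MEFs. Overlapping sums do not show equal macrophage content, and the part of macrophage RNA in this comparison was not tested. Slfn9 fell from 9.76 ± 3.98 CPM in early WT to 1.52 ± 0.224 CPM in DKO MEFs (log2 fold change -2.67, SE 0.35, edgeR adjusted p = 0.000797). Slfn2 fell too (-1.45, SE 0.34, edgeR adjusted p = 0.0137). Slfn2 did not pass without DKO library 2 (-1.32, SE 0.40, edgeR adjusted p = 0.0705), and it passed in 13 of 14 alternatives. As a description, Slfn8, with 10 counts against 146, was 9.07-fold lower (95% counting interval 4.80 to 19.3-fold), and Slfn10-ps, with 2 counts against 146, was 45.4-fold lower (12.3 to 378-fold). Slfn5 did not pass (log2 fold change -1.04, SE 0.38, edgeR adjusted p = 0.0766). The fit called 4 of 5 members, all lower and Slfn8 and Slfn10-ps among them, where it called 18.3% of the genes tested and 8.92% in this direction, and the count is no support beyond Slfn2 and Slfn9. Of the macrophage markers, 1 of 19 passed, lower, with a median log2 fold change of 0.34 over the list. Of the 27 interferon-induced genes tested, 20 fell (median -1.70), and their part in the falls of the Schlafen genes was not tested. DKO MEFs differ from early WT MEFs in passage as well as genotype, and the comparison shares its DKO libraries with that against late WT MEFs.

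**Figure D3:**
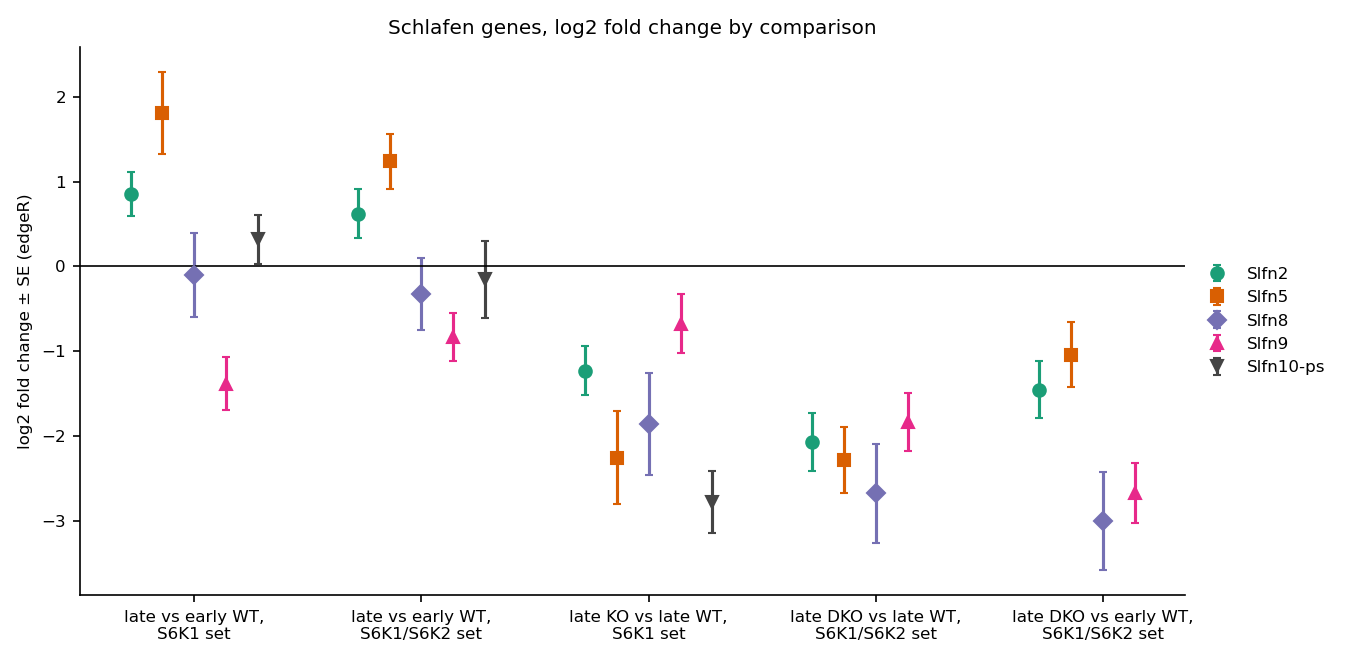
Log2 fold change (edgeR, bars ± SE) of the 5 tested Schlafen genes in 5 comparisons of MEF groups, with a line at 0. Slfn10-ps is not drawn in the comparisons with DKO MEFs, where it had 2 counts in 3 libraries. Slfn5 and Slfn2 lie above 0 and Slfn9 below 0 with passage, and all points lie below 0 in KO and DKO MEFs, from -0.67 for Slfn9 in KO MEFs to -3.00 for Slfn8 in DKO against early WT MEFs. The KO comparison is a description and shares its late WT libraries with the passage comparison of its set, as does the DKO comparison.

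The difference between the DKO and KO effects at late passage was -0.83 (SE 0.45) for Slfn2, -0.01 (SE 0.48) for Slfn5, -0.80 (SE 0.85) for Slfn8 and -1.15 (SE 0.50) for Slfn9 on the log2 scale. These are given without a test, as they contain the KO values.

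Interferon signalling was examined because it is the known inducer of the family. Of 28 interferon-induced genes, 27 were tested, and with passage 10 fell and 0 rose in the S6K1 set (median log2 fold change -0.81, against -0.04 over all genes tested). In the S6K1/S6K2 set 19 fell and 0 rose (median -1.40, against 0.01 over all genes). At an unadjusted p under 0.05, edgeR had 2 and 1 of these genes higher in the respective sets. Ifit1, an inhibitor of viral RNA translation, fell from 183 ± 143 to 40.4 ± 20.1 CPM in the S6K1 set (log2 fold change -2.19, SE 0.51, edgeR adjusted p = 0.0158). Iigp1, an interferon-induced GTPase, fell in both sets (-2.15, SE 0.51, edgeR adjusted p = 0.0167 and -2.97, SE 0.57, edgeR adjusted p = 0.00614). Mx1, an antiviral GTPase, fell from 1.504 ± 0.903 to 0.144 ± 0.156 CPM in the S6K1/S6K2 set (-3.26, SE 0.81, edgeR adjusted p = 0.0269). Slfn9 fell with passage as these genes did in the S6K1 set, whereas Slfn2 and Slfn5 rose there.

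Of 16 genes of interferon signalling, 15 were tested. With passage 1 rose and 2 fell in the S6K1 set, and 1 rose and 5 fell in the S6K1/S6K2 set. The gene that rose in both was Ifngr2, a receptor chain for interferon gamma, from 110 ± 8.76 to 169 ± 20.8 CPM in the S6K1 set (log2 fold change 0.62, SE 0.13, edgeR adjusted p = 0.00724) and by 0.63 (SE 0.14, edgeR adjusted p = 0.0119) in the other. Usp18, which restrains the type I receptor, fell in both sets (log2 fold change -1.53, SE 0.40, edgeR adjusted p = 0.0255 and -2.85, SE 0.44, edgeR adjusted p = 0.00265). Irf9, a subunit of the factor that binds the response element, fell (log2 fold change -0.69, SE 0.18, edgeR adjusted p = 0.0245) in the S6K1 set, and Irf7, which drives interferon genes, fell (-1.98, SE 0.32, edgeR adjusted p = 0.00250) in the S6K1/S6K2 set. Ifnb1, the gene of interferon beta, was at 0 counts in the KO, DKO and late WT groups.

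In DKO against late WT MEFs, 2 of 27 interferon-induced genes fell and 0 rose (median log2 fold change -0.21, against -0.01 over all genes), and 0 of 15 signalling genes passed (1 higher and 1 lower at an unadjusted p under 0.05 in edgeR). The interferon-induced genes were Oas1a, which makes 2′-5′ oligoadenylates, from 3.40 ± 0.888 to 0.512 ± 0.403 CPM (-2.79, SE 0.57, edgeR adjusted p = 0.0185), and Trim30a, from 14.04 ± 1.86 to 6.50 ± 1.57 CPM (-1.13, SE 0.22, edgeR adjusted p = 0.0156). The log2 fold changes of Slfn2, Slfn5 and Slfn9 in this comparison, -2.28 to -1.83, lay between those of Oas1a and Trim30a. At an unadjusted p under 0.05, edgeR had 5 of the 27 interferon-induced genes lower and 0 higher. Their part in the falls of the Schlafen genes was not tested. As a description, Slfn8 (-2.67) also lay between Oas1a and Trim30a, and Slfn10-ps is left out because it had 2 counts in DKO libraries. In KO against late WT MEFs the median was -0.35 over the interferon-induced genes and -0.09 over the signalling genes.

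The members were set against the summed macrophage and interferon-induced lists as Pearson r on log2 levels over 22 libraries and, after subtracting group means, within groups. All points come from the same libraries, so each pair shares depth and group structure. With the summed macrophage markers, r was 0.56 (0.87 within groups) for Slfn2 and 0.68 (0.52) for Slfn5. For Slfn8 it was 0.07 (0.37), for Slfn9 -0.31 (-0.11) and for Slfn10-ps 0.11 (-0.24). With the summed interferon-induced genes, r was 0.86 (0.75) for Slfn9, 0.66 (0.43) for Slfn8 and 0.64 (0.68) for Slfn10-ps. It was 0.37 (0.38) for Slfn2 and 0.17 (0.53) for Slfn5. Between members, r over all libraries was highest for Slfn2 and Slfn5 (0.86, 0.69 within groups) and lowest for Slfn5 and Slfn9 (0.30, 0.41 within groups). Within groups it was lowest for Slfn2 and Slfn10-ps (-0.06).

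**Figure D4:**
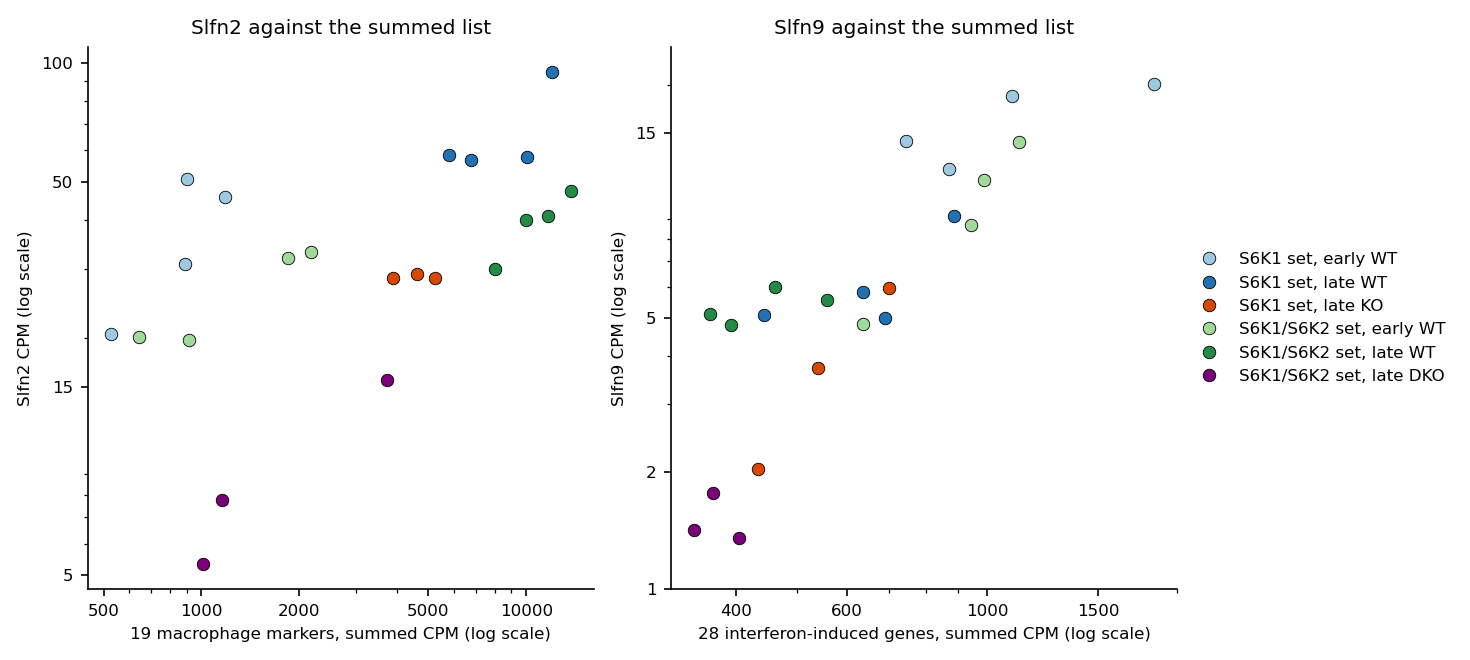
Left, Slfn2 (CPM) against the summed level of 19 macrophage markers in each of 22 libraries; right, Slfn9 (CPM) against the summed level of 28 interferon-induced genes, all on log axes and coloured by group. Slfn2 and the macrophage markers were both high in late WT MEFs, with r = 0.87 within groups. DKO MEFs had less Slfn2 (5.31 to 15.6 CPM) than early WT MEFs, from which they also differ in passage. The summed markers were at 1014 to 3731 CPM in DKO and 644 to 2181 CPM in early WT MEFs of that set, and their part was not tested. Slfn9 and the interferon-induced genes were both highest in early WT MEFs (r = 0.75 within groups), and DKO MEFs had 1.36 to 1.77 CPM of Slfn9.

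Among the 14886 genes tested over all libraries, those most like each member in pattern were named by the highest r. For Slfn2 they were Clec4a2 (r = 0.92), a lectin-like receptor of myeloid cells, and Mrc1 (0.92), the macrophage mannose receptor. For Slfn5 they were Clec4a2 (0.89) and Ssh2 (0.87), a cofilin phosphatase. For Slfn9 they were Dhx58 (0.92), which encodes the RNA sensor LGP2, and Tmpo (0.91), a lamina-associated protein. For Slfn10-ps they were Cdt1 (0.92, 0.59 within groups), a DNA replication licensing factor, and Asf1b (0.90, 0.44 within groups), a histone chaperone. Over all libraries, r of Slfn10-ps includes the KO values that led to the choice of the family. It also includes DKO libraries with 0 to 2 counts, so these matches are a description. For Slfn8 they were Slfn10-ps (0.85) and Limd2 (0.84). Within groups these values ran from 0.07 for Slfn8 and Slfn10-ps to 0.89 for Slfn9 and Dhx58.

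The nearest tested genes on either side were examined too. Before the cluster, Lig3 fell with passage in the S6K1 set (log2 fold change -0.62, SE 0.13, edgeR adjusted p = 0.00787). Nle1 (42.903 kb away), Rffl and Lig3 had log2 fold changes of 0.00 (SE 0.16), -0.37 (SE 0.21) and -0.21 (SE 0.16) in DKO against late WT MEFs, and none of the 3 passed. After it, Ap2b1 (-0.16, SE 0.11) did not pass either. AI662270, which lies 8.422 kb after the end of Slfn3, rose with passage in both sets (log2 fold change 2.56, SE 0.34, edgeR adjusted p = 0.000442 and 3.10, SE 0.42, edgeR adjusted p = 0.00102). It fell in DKO against late WT MEFs (-2.79, SE 0.47, edgeR adjusted p = 0.00762) and had a log2 fold change of -1.71 (SE 0.36) in KO against late WT MEFs.

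Close paralogs limit how far single members can be told apart. Of the 50-base stretches of annotated coding transcripts, as long as the reads, 19.7% of those of Slfn10-ps occurred in another gene, most often Slfn9. The share was 14.6% for Slfn8, 14.2% for Slfn9, 4.27% for Slfn2 and 1.42% for Slfn5. How the counting treated reads that match several genes is not given in the sources used here. With the counts of Slfn8, Slfn9 and Slfn10-ps summed, the log2 fold change was -2.32 (SE 0.33) in DKO against late WT MEFs. That value is a description, because the sum holds Slfn8 and Slfn10-ps, which passed the filter through WT libraries only. With passage the summed counts had a log2 fold change of -0.82 (SE 0.26, edgeR adjusted p = 0.0593) in the S6K1 set and -0.62 (SE 0.26, edgeR adjusted p = 0.134) in the S6K1/S6K2 set, so the fall of Slfn9 in the S6K1 set was not called for the sum.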

How the data were processed

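RNA was extracted from MEFs at passages 3 and 8, and the authors prepared stranded mRNA libraries that were sequenced as single-end reads of 50 bases. The deposited values are raw counts per gene, not normalized, for 55401 identifiers in 22 libraries. The sources differ on how they were made: the methods name TopHat, mm9 and HTSeq, whereas the submitters' processing notes name CASAVA, STAR 2.7.1a, mm10 and DESeq2 1.28.1. The annotation release, strand setting and treatment of multiply mapped reads are not given in the sources used here. Of the identifiers, 32589 had a symbol, carrying 96.98% of the counts, and 22812 were absent from GENCODE vM1 (mm9). Coordinates are therefore those of RefSeq GRCm38.p6, matched by symbol, and exon lengths and transcripts are those of GENCODE vM1.

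Groups were taken from the sample labels. Library numbers follow the order of the records and pair nothing. Counts of the 30 library pairs within groups differed by chi-square values of 20.6 to 265.7 per degree of freedom (genes with 20 counts or more). In R 4.3.3, edgeR 4.0.16 was used with filterByExpr, TMM factors and a robust quasi-likelihood fit (glmQLFTest) to the 3 groups of each set, with Benjamini-Hochberg adjustment over all genes tested and a threshold of 0.05. Interaction terms were fitted over all 22 libraries. Printed CPM are TMM-scaled on 1 scale over 22 libraries, and correlations used log2 CPM with a prior count of 2. For Slfn8 and Slfn10-ps, which had few counts, the ratio of summed counts is given with an exact interval. Promoter stretches came from RefSeq and were aligned globally (match 1, mismatch -1, gap -2). The fits were tested on simulated data.

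The members, gene lists and tests were chosen with earlier results of these data known. Genes were named by rule: the 8 members, Slfn14, Slfnl1, the targeted genes, up to 2 rises and 2 falls of each interferon list per comparison, the 2 genes most like each tested member, and the 3 nearest tested genes on each side, of which 1 is not reported here. The alternatives were DESeq2 1.42.0, RLE scaling, all genes without a count filter, fits to 2 or 6 groups, a Y-linked covariate, summed paralogs, CPM of the library total, and leaving out each library. Livers and RAS-expressing MEFs of the study were not analysed here. Intervals cover counting error only, since reads carried no molecular identifiers.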

Additional observations from a re-analysis of the deposited data

Results flagged for a closer look

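Late WT library 1 of the S6K1 set stood apart from the other 3 libraries of its group for Slfn2, at 95.2 CPM, and for Slfn8, at 5.10 CPM, when the gap to the next library was set against the range of the group (Dixon's test at 95%). The other 3 libraries had 56.8 to 58.4 CPM of Slfn2 and 1.78 to 2.32 CPM of Slfn8. Of the 20 values in groups of 4 libraries that were checked, chance alone flags about 1 in 20. The same library had the highest summed macrophage markers of its group (12044 CPM) and 888 CPM of summed interferon-induced genes, and their part in these values was not tested. Without it, 1 of 5 tested members passed in late against early WT MEFs of the S6K1 set, where 3 of 5 passed with it. Of all genes tested, 1388 of 14044 passed without it and 1827 of 14132 with it. The same drop to 1 of 5 followed without early library 4 or late library 2, so it was not particular to this library.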

How the results depend on the processing

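No paired analysis was possible because neither the labels nor the methods name the libraries that share an embryo or mother, and replicate numbers follow the order of the records. Leaving out each library in turn, the members that passed were 1 to 3 (of 5) with passage in the S6K1 set, 0 to 1 in KO, 0 to 2 with passage in the S6K1/S6K2 set, 1 to 5 in DKO against late WT and 3 to 5 in DKO against early WT MEFs. Over all genes tested, these omissions gave 1223 to 1749, 2 to 9, 885 to 2247, 97 to 783 and 1163 to 2757 calls, against 1827, 6, 1892, 686 and 2623. Member counts in KO follow from the choice of the family and are given only to show how the calls shift. DESeq2 called 3 members and 261 genes in KO, 2 members and 2845 genes with passage in the S6K1/S6K2 set, 1206 genes in DKO against late WT MEFs and 222 genes for the passage difference between sets (106 in edgeR). The fit to 2 groups called 0 members in KO and the fit to 6 groups 0 members with passage in the S6K1/S6K2 set and 16 genes in KO. Without a filter 43 genes passed in KO. With the Y-linked covariate 38 genes passed in KO and 3265 with passage in the S6K1 set. With paralogs summed, 0 members passed in KO, where 4 of 14130 features did. In DKO against late WT MEFs 3 (of 3) passed, where 681 of 14363 features did. In DKO against early WT MEFs 2 passed, where 2622 of 14363 features did. Fewer features of the family were tested in this setting. The sum holds Slfn8 and Slfn10-ps, so its calls in DKO are no support. Over these omissions the log2 fold change of Slfn8 ranged from -0.57 to 0.28 with passage in the S6K1 set, above 0 without early library 2 (0.28), late library 3 (0.08) or late library 4 (0.06), and its passage difference between sets from -0.65 to 0.21, above 0 without S6K1 late library 1. For Slfn10-ps with passage in the S6K1/S6K2 set it ranged from -0.43 to 0.039, above 0 without late library 4. None of these was called, and the causes of the other shifts were not tested. Slfn8 and Slfn10-ps rest on few counts, which limits what their comparisons can show.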
